A study of Homo sapiens with 18 samples.

Results

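The EGF receptor family and its ligands were followed as 8 named genes: the ligand genes AREG, EREG, TGFA and HBEGF and the receptor genes EGFR, ERBB2, ERBB3 and ERBB4. They were taken as a family by name, with earlier results of these data known, and all 8 were found among the 57736 rows of the count table, each in 1 row. The cells were PEO1, a human ovarian cancer line whose p53 the series title describes as mutant. Cells were transfected with an siRNA against p53 (sip53) or with a control siRNA (siControl), kept for 48 h without steroid hormones in phenol red-free medium with charcoal-stripped serum, and collected untreated (0 h) or after 2 h or 8 h with 10 nM estradiol (E2). The 6 groups were sip53 at 0, 2 and 8 h and siControl at 0, 2 and 8 h, with 3 samples in each and 18 in all, and every group shared the hormone-free culture. All samples came from this 1 cell line. RNA was read with a 3′ end kit, so a gene's count depends on its transcript ends and not on transcript length, and levels are not compared between genes here.

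The 4 ligands are made as membrane-anchored precursors. Metalloproteases of the ADAM family cut them free, and the freed ligand pairs receptor molecules on the same or a neighbouring cell. AREG (amphiregulin) and TGFA (transforming growth factor alpha) bind EGFR, while EREG (epiregulin) and HBEGF (heparin-binding EGF-like growth factor) bind EGFR and ERBB4. ERBB2 has no known ligand and serves as a partner for the others, and ERBB3 binds neuregulins but has little kinase activity of its own. Paired receptors signal through the RAS-ERK and PI3K-AKT cascades, and AREG is known as an estrogen-induced gene in breast cancer cells.

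Total counts ran from 9225939 to 11307199 in the sip53 libraries and from 7542457 to 10132570 in the siControl libraries. The library siControl 0 h replicate 2 stood apart, with the lowest total, the lowest value on the second principal component (-36.5, a component with 12.5% of the variance) and the largest distance from the rest of its group (root mean square 0.60 in log2 CPM). Every call of a family or pathway gene that rests on it is therefore also given without it. The calls of the marker genes below are not given without it. On the first principal component (30.2% of the variance), sip53 0 h replicate 1 lay at -3.3, between the arms. The other sip53 libraries lay from 16.4 to 37.5 and the siControl libraries from -40 to -10.9. This sip53 library is among those left out in turn below. The summed level of the epithelial and ovarian carcinoma markers ran from 5690 to 6560 CPM in sip53 libraries, against 4570 to 5130 CPM in siControl libraries, so the arms did not overlap, and the part of this shift in the results was not tested. The members of that list did not move alike: of 12 tested, 4, 4 and 3 were called higher at 0, 2 and 8 h and none lower, with medians of 0.26, 0.05 and 0.20 in log2 fold change. The abundant keratin genes KRT18 and KRT19 were called at all 3 times, and KRT8 at 0 h and 2 h. The estrogen receptor gene ESR1 was also called at all 3 times, with log2 fold changes of 0.51, 0.37 and 0.44 (adjusted p = 0.0114, 0.0401 and 0.0237, edgeR). PAX8, EPCAM, MUC16 and CLDN3 were among those not called. CPM is the count as a share of its library's total, scaled to 1000000 after TMM scaling of the libraries. The summed levels of fibroblast markers (6.04 to 13.3 CPM in sip53, 4.64 to 13.1 CPM in siControl), leukocyte markers (4.59 to 9.12 CPM in sip53, 4.01 to 8.45 CPM in siControl) and endothelial markers (0.178 to 1.07 CPM in sip53, 0 to 0.916 CPM in siControl) overlapped between the arms. COL1A2, COL3A1, DCN, LUM, PTPRC and CD3E were at 0 counts in every library. COL1A1 of the fibroblast list (4.64 to 13.3 CPM) and CD14 of the leukocyte list (4.01 to 9.12 CPM) were present in every library. Of the endothelial list, CDH5 reached 1.04 CPM, and PECAM1 had no named row.

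The upstream sequences of AREG, EREG and HBEGF are shown because these are the ligand genes whose level was lower in every sip53 sample than in the siControl samples of the same time, as given further on. Each is the 250 bases before the gene's start in RefSeq on build GRCh38.p14, written 5′ to 3′ on the gene's own strand. AREG lies on chromosome 4, plus strand, with its window at chr4:74444886-74445135. EREG lies on the same chromosome and strand, with its window at chr4:74364895-74365144. HBEGF lies on chromosome 5, minus strand, with its window at chr5:140346604-140346853. Capitals mark every match, on either strand, to the searched motifs.
AREG: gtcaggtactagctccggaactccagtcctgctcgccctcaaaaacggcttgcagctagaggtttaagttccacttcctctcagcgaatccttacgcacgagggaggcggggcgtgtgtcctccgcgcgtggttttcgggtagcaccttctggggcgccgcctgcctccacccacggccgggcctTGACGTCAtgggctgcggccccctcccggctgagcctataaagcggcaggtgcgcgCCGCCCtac
EREG: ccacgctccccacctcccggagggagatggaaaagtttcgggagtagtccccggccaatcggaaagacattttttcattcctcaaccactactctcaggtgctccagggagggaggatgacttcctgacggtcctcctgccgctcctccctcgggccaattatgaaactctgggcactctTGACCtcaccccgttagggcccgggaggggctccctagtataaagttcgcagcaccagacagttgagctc
HBEGF: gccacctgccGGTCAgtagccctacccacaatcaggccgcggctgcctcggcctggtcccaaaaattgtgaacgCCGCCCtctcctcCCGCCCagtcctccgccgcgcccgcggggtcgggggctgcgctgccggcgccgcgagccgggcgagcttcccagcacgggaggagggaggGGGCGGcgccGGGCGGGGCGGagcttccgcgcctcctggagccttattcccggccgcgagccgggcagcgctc
The searched motifs were the estrogen response element (GGTCA, any 3 bases, TGACC), its single arm GGTCA, the cAMP response element TGACGTCA, the AP-1 site TGAGTCA and the SP1 box GGGCGG. The single arm overlaps the whole element wherever that occurs.

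AREG holds a cAMP response element 65 bases before its start, a motif present in 1.65% of 35116 RefSeq windows of the same length. It also holds an SP1 box on the opposite strand 9 bases before the start. EREG holds a single GGTCA arm, on the opposite strand, 70 bases before the start, a motif found in 32.6% of windows. HBEGF holds 1 GGTCA arm at 240 bases and SP1 boxes at 176, 163, 73, 63 and 58 bases before its start, and 42.6% of windows hold an SP1 box. RefSeq windows were matched for 7 of the 8 genes, with 9 windows in all, and ERBB3 was not matched. The whole estrogen response element was in none of the 9 windows and in 14 of the 35116 (0.0399%). TGFA has a GGTCA arm at 190 bases and 3 SP1 boxes in 1 of its windows. EGFR has 2 SP1 boxes in its first window and 2 AP-1 sites, a motif found in 4.2% of windows, at 232 and 136 bases before its second start. The ERBB2 window holds none of these motifs. A match is a run of letters in this window and says nothing of whether a factor binds there.

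The ligands AREG and HBEGF were lower in sip53 than in siControl cells at all 3 times, and TGFA was not called at any time. Among the receptors ERBB3 was higher at 0 h and 2 h, while EGFR and ERBB2 were not called. EREG was called lower at 0 h and 8 h, but it passed the low-count filter through its siControl libraries, where it is high, so it is left out of the counts here and described on its own. Of the 8 genes, 7 passed the low-count filter and were tested with edgeR's quasi-likelihood test, in which a gene is called at a Benjamini-Hochberg adjusted p under 0.05 over all 15318 genes tested. Without EREG, at 0 h 3 of 6 were called, 1 higher and 2 lower, where 9.12% of all tested genes were called. At 2 h 3 of 6 were called, 1 higher and 2 lower, against 12.2% of all tested genes. At 8 h 2 of 6 were called, both lower, against 8.96% of all tested genes. The median log2 fold change over the 6 was -0.02, 0 and -0.08 at 0, 2 and 8 h, where that of all genes was within 0.01 of 0. In RNA from whole cultures, fewer cells with a transcript and less of it per cell cannot be told apart.

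**Figure D1:**
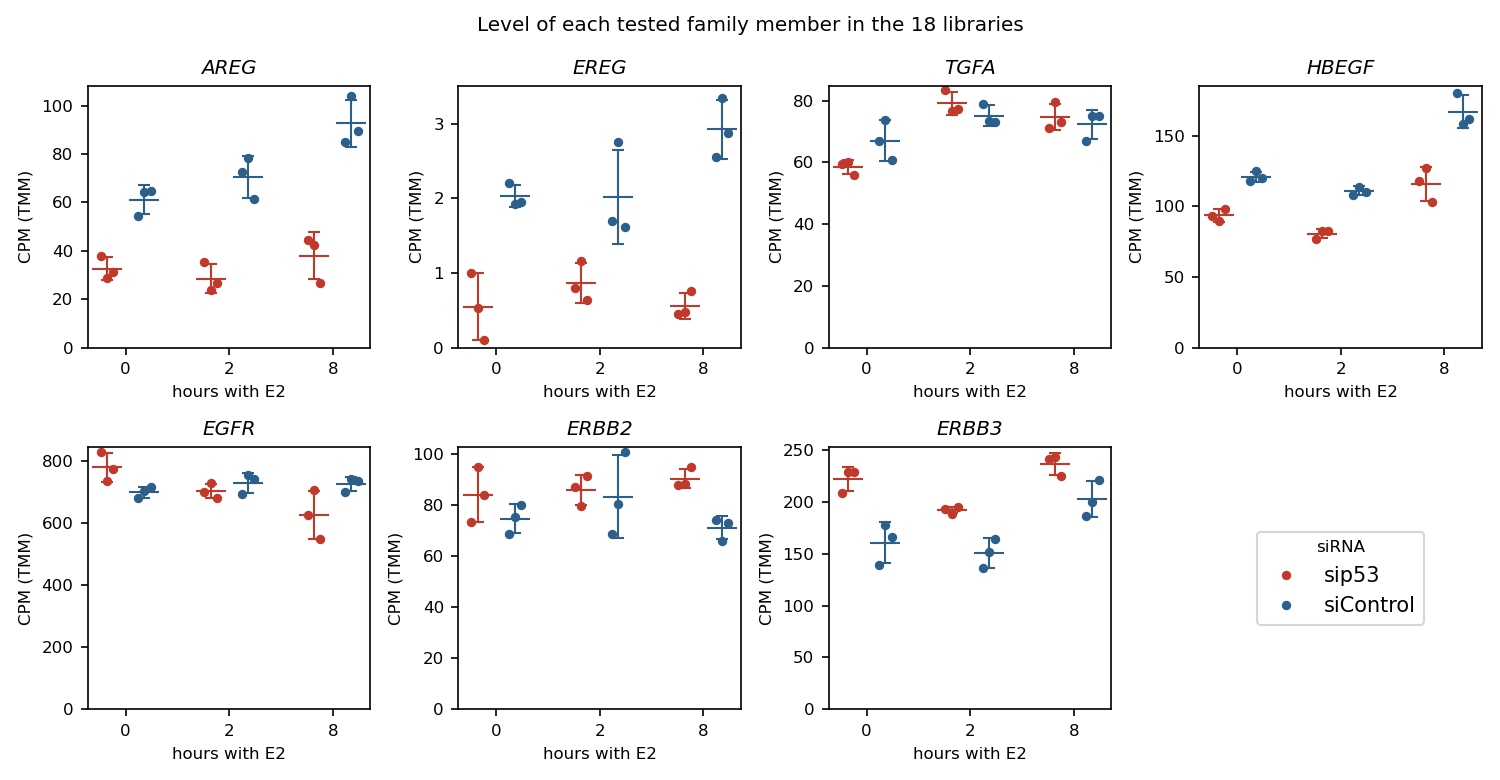
CPM after TMM scaling (vertical axes, each from 0) of the 7 tested genes by hours with E2 (horizontal axes), with sip53 in red to the left of siControl in blue. Points are the 3 samples of a group, and bars the mean ± SD. AREG in sip53 stays at or below 44.5 CPM, under every siControl sample, which start at 54.3 CPM.

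AREG was the ligand with the smallest adjusted p at each time. At 0 h its 3 samples had 37.8, 28.9 and 31.2 CPM in sip53, against 54.3, 64.3 and 64.8 CPM in siControl. At 2 h they had 35.2, 23.7 and 26.6 CPM in sip53, against 72.4, 78.2 and 61.2 CPM in siControl. At 8 h they had 44.5, 42.4 and 26.8 CPM in sip53, against 84.8, 104 and 89.4 CPM in siControl. All 9 sip53 samples lay below all 9 siControl samples. These values gave a log2 fold change of -0.90 ± 0.17 (SE, adjusted p = 0.00289, edgeR) at 0 h, -1.31 ± 0.17 (adjusted p = 8.99e-05) at 2 h and -1.29 ± 0.17 (adjusted p = 8.84e-05) at 8 h, or 0.535, 0.405 and 0.409 times the siControl level. The call held at each time in all 6 fits that each left out 1 of the compared libraries, and without siControl 0 h replicate 2 the 0 h value was -0.85 (adjusted p = 0.0118). Build hg19, on which the counts were made, carries a second, nearly identical copy of AREG, and counting could have split reads between them, so its absolute level is uncertain. A row without a GENCODE v29 name may be that copy, and it was not summed with AREG.

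EREG, which neighbours AREG on chromosome 4, was near the detection limit. At 0 h its 3 samples had 0.998, 0.535 and 0.104 CPM in sip53, against 2.20, 1.92 and 1.95 CPM in siControl. At 2 h they had 0.800, 1.16 and 0.632 CPM in sip53, against 1.70, 2.75 and 1.62 CPM in siControl. At 8 h they had 0.444, 0.479 and 0.760 CPM in sip53, against 2.55, 3.34 and 2.87 CPM in siControl. The groups did not overlap at any time, but the values rest on 16, 27 and 18 summed counts in sip53 and 53, 53 and 80 in siControl, and only 2 of 9 sip53 libraries against 9 of 9 siControl libraries reached 10 counts. At 8 h the fold change on the log2 scale came to -2.36 ± 0.55 (adjusted p = 0.00945, edgeR), a call kept in all 6 fits with a library left out. These fits share most of their libraries, and EREG passed the filter through its siControl libraries, so they are not separate support. DESeq2 gave no adjusted p for this comparison. At 0 h the fold change was -1.86 ± 0.56 (adjusted p = 0.0414, edgeR), a call kept in 1 of 6 such fits, the one without sip53 0 h replicate 1. Without siControl 0 h replicate 2 it was -1.89 with an adjusted p of 0.0845. At 2 h it was -1.23 ± 0.53 (adjusted p = 0.141) and was not called.

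HBEGF, whose precursor is also the diphtheria toxin receptor, was lower in sip53 at each time. At 0 h its 3 samples had 93.3, 89.4 and 98.2 CPM in sip53, against 118, 125 and 120 CPM in siControl. At 2 h they had 77.1, 82.4 and 82.7 CPM in sip53, against 108, 114 and 110 CPM in siControl. At 8 h they had 118, 127 and 103 CPM in sip53, against 180, 158 and 162 CPM in siControl. The arms did not overlap at any time. HBEGF thus had a log2 fold change of -0.37 ± 0.09 (SE, adjusted p = 0.0172, edgeR) at 0 h, -0.46 ± 0.09 (adjusted p = 0.00312) at 2 h and -0.53 ± 0.09 (adjusted p = 0.00132) at 8 h. The calls at 2 h and 8 h held in all 6 fits with a library left out. The 0 h call held in 3 of 6. Leaving out sip53 0 h replicate 2, sip53 0 h replicate 3 or siControl 0 h replicate 2 ended it, with an adjusted p of 0.0892, 0.0607 and 0.0666 and the log2 fold change -0.33, -0.40 and -0.33.

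TGFA was the ligand without a call. At 0 h its samples had 59.4, 60.0 and 56.0 CPM in sip53, against 66.8, 73.8 and 60.7 CPM in siControl. Its log2 fold change lay at -0.20 at 0 h (95% interval -0.40 to 0.01), 0.07 at 2 h (-0.13 to 0.27) and 0.04 at 8 h (-0.16 to 0.25). The groups were apart at 0 h by less than 1 CPM and overlapped at 2 h and 8 h.

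Among the receptors, ERBB3 moved the other way from the 3 ligands. At 0 h its 3 samples had 209, 229 and 229 CPM in sip53, against 139, 178 and 166 CPM in siControl. At 2 h they had 193, 189 and 195 CPM in sip53, against 136, 152 and 164 CPM in siControl. At 8 h they had 242, 244 and 225 CPM in sip53, against 187, 200 and 221 CPM in siControl. Every sip53 sample lay above every siControl sample of the same time. ERBB3 had a log2 fold change of 0.47 ± 0.10 at 0 h (SE, adjusted p = 0.00717, edgeR), 0.35 ± 0.10 at 2 h (adjusted p = 0.024) and 0.22 ± 0.10 at 8 h (adjusted p = 0.166, not called). At 0 h it was 0.45 (adjusted p = 0.051, no longer called) once sip53 0 h replicate 3 was left out, and 0.56 (adjusted p = 0.00679) without siControl 0 h replicate 2. The 2 h call held in 1 of 6 fits, the one without siControl 2 h replicate 3, and in the other fits the log2 fold change was 0.28 to 0.37 with adjusted p from 0.0703 to 0.108.

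EGFR, the receptor of all 4 ligands, and ERBB2 were not called between the arms. EGFR averaged 778 ± 47.8, 702 ± 23.8 and 626 ± 77.2 CPM at 0, 2 and 8 h in sip53, and 698 ± 17.1, 728 ± 32.2 and 725 ± 22.8 CPM in siControl (SD, n = 3). Its log2 fold change was 0.16 at 0 h (95% interval -0.03 to 0.34), -0.05 at 2 h (-0.23 to 0.13) and -0.21 at 8 h (-0.39 to -0.03), where the adjusted p was 0.137. Without sip53 8 h replicate 2, the sip53 sample with the most EGFR at 8 h, the 8 h value was -0.30 (adjusted p = 0.0453). ERBB2 averaged 84.2 ± 10.8, 86.1 ± 5.88 and 90.5 ± 3.84 CPM at 0, 2 and 8 h in sip53, and 74.8 ± 5.70, 83.4 ± 16.3 and 71.2 ± 4.49 CPM in siControl. Its largest log2 fold change was 0.35 at 8 h (95% interval 0.09 to 0.60, adjusted p = 0.0799), where the groups did not overlap. It was called there when the compared groups were fitted alone (0.34, adjusted p = 0.0448). ERBB4, which binds neuregulins and some EGFR ligands, had 1 count in the 18 libraries together. It was not tested, and 3 counts in the shallowest library would be 0.385 CPM.

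**Figure D2:**
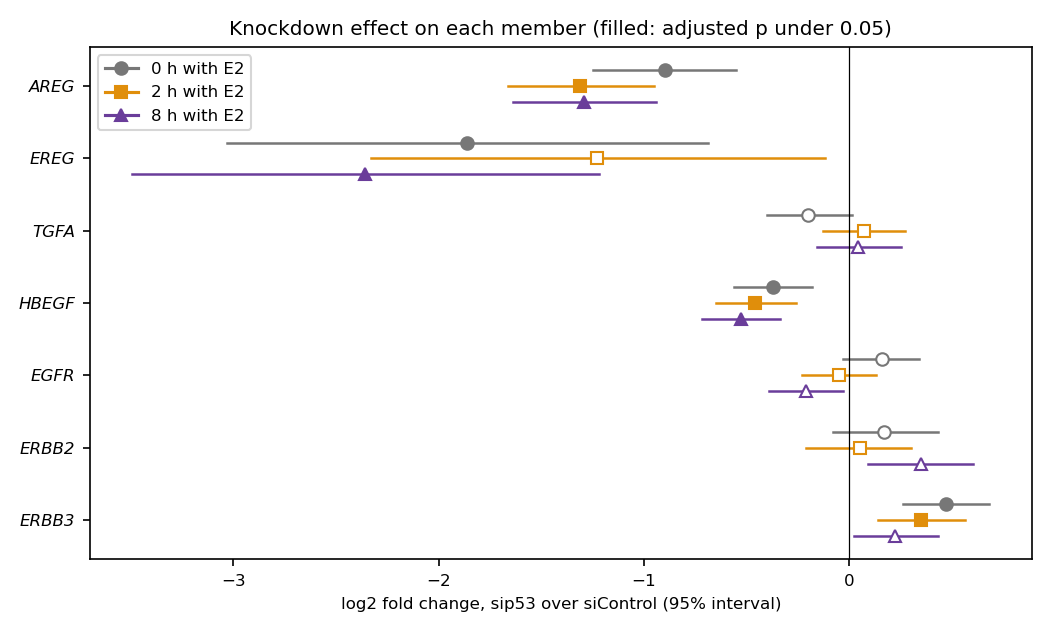
Log2 fold change of sip53 over siControl (horizontal axis) for the 7 tested genes at 0, 2 and 8 h with E2, with 95% intervals and filled symbols for adjusted p under 0.05. AREG, EREG and HBEGF lie left of 0 and ERBB3 right of it, and EREG has the widest intervals.

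The second question was how the genes moved with estradiol. No sample was collected at 2 h or 8 h without E2, so E2 and elapsed time cannot be told apart. An E2 response below is the change between these times. The 2 h and 8 h comparisons within an arm share that arm's 0 h samples, and those with 8 h against 2 h share the others. At 2 h against 0 h none of the 7 genes was called in sip53, where 0.307% of all genes tested were called, and none in siControl, where 0.228% were. At an unadjusted p under 0.05 there were 3 genes in sip53 and 0 in siControl, and DESeq2 called 1 (TGFA) in sip53 and 0 in siControl. At 8 h against 0 h none of the 7 was called in sip53 (2.74% of all genes), with 3 at an unadjusted p under 0.05 and 3 by DESeq2 (TGFA, HBEGF and EGFR). In siControl 1 of the 7 was called (HBEGF, higher), against 2.6% of all genes, with 3 at an unadjusted p under 0.05 and 3 by DESeq2 (HBEGF, AREG and ERBB3). At 8 h against 2 h 1 was called in sip53 (HBEGF, higher), against 1.38% of all genes, and 2 in siControl (HBEGF and ERBB3, both higher), against 1.02% of all genes.

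HBEGF was the gene with most calls between times, and only the siControl call at 8 h against 0 h was against untreated samples. Its mean at 0, 2 and 8 h was 93.6 ± 4.40, 80.7 ± 3.14 and 116 ± 12 CPM in sip53, and 121 ± 3.52, 111 ± 3.19 and 167 ± 11.7 CPM in siControl (SD, n = 3). In both arms every 2 h sample lay below every 0 h sample and every 8 h sample lay above both. The 8 h samples exceeded the 2 h samples by a log2 fold change of 0.52 ± 0.09 in sip53 (SE, adjusted p = 0.00261, edgeR) and 0.59 ± 0.09 in siControl (adjusted p = 0.000853), and both calls held in all 6 fits with a library left out. Against 0 h, the 8 h value was 0.31 ± 0.09 in sip53 (adjusted p = 0.0826) and 0.46 ± 0.09 in siControl (adjusted p = 0.00611). Without sip53 8 h replicate 3, the sip53 value was 0.40 (adjusted p = 0.0435). The siControl call was lost without siControl 8 h replicate 1 (0.40, adjusted p = 0.0544), and without siControl 0 h replicate 2 it was 0.49 (adjusted p = 0.0176). The declines at 2 h were not called (-0.21 in sip53 and -0.13 in siControl).

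AREG and EREG did not pass the test with E2. AREG averaged 32.6 ± 4.63, 28.5 ± 5.98 and 37.9 ± 9.68 CPM at 0, 2 and 8 h in sip53, and 61.1 ± 5.92, 70.6 ± 8.62 and 92.6 ± 9.87 CPM in siControl. Their difference at 8 h against 0 h was a log2 fold change of 0.21 ± 0.17 in sip53 (adjusted p = 0.617) and 0.60 ± 0.16 in siControl (adjusted p = 0.0508), where every 8 h sample exceeded every 0 h sample. The siControl value was called with DESeq2 (adjusted p = 0.0198), with no low-count filter (0.000564), with the compared groups alone (0.0492) and with a replicate block (0.0493). Without siControl 0 h replicate 2 it was 0.64 (adjusted p = 0.0991). EREG had a log2 fold change at 8 h of 0.03 ± 0.62 in sip53 and 0.52 ± 0.50 in siControl, with intervals wide enough to hold a doubling in either arm.

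TGFA was higher with E2 in the sip53 arm by values that fell just short of the threshold. Its sip53 samples had 59.4, 60.0 and 56.0 CPM at 0 h, 83.4, 76.6 and 77.3 CPM at 2 h and 71.2, 79.5 and 73.2 CPM at 8 h. All sip53 samples at 2 h and 8 h thus lay above all those at 0 h. This was a log2 fold change of 0.44 ± 0.10 at 2 h (SE, adjusted p = 0.057, edgeR) and 0.35 ± 0.10 at 8 h (adjusted p = 0.0545), and DESeq2 gave adjusted p values of 0.00597 and 0.0231. In siControl it was 0.16 at 2 h (95% interval -0.04 to 0.37) and 0.11 at 8 h (-0.09 to 0.31).

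Of the receptors, ERBB3 in siControl gave the single call between times, at 8 h against 2 h, where both groups had E2. It averaged 222 ± 11.6, 192 ± 2.89 and 237 ± 10.3 CPM at 0, 2 and 8 h in sip53, and 161 ± 20.1, 151 ± 14.2 and 203 ± 17 CPM in siControl. In siControl the 8 h samples exceeded the 2 h samples by 0.43 ± 0.10 (log2 fold change, adjusted p = 0.0364, edgeR), a call kept in 1 of 6 fits with a library left out, the one without siControl 2 h replicate 3, with adjusted p from 0.0565 to 0.179 in the others. In sip53 the same difference was 0.30 ± 0.10 (adjusted p = 0.16), called with the compared groups alone (0.0455). Against 0 h, ERBB3 at 8 h was 0.09 ± 0.10 in sip53 and 0.34 ± 0.10 in siControl (adjusted p = 0.732 and 0.0752), and DESeq2 called the siControl value (0.33, adjusted p = 0.0451). Without siControl 0 h replicate 2 it was 0.42 (adjusted p = 0.0642). EGFR in sip53 at 8 h against 0 h had a log2 fold change of -0.31 ± 0.09 (adjusted p = 0.0577), with every 8 h sample below every 0 h sample, and without sip53 8 h replicate 2 it was -0.41 (adjusted p = 0.0185). In siControl it was 0.05 (95% interval -0.13 to 0.24). ERBB2 had log2 fold changes of 0.10 in sip53 and -0.07 in siControl at 8 h, with intervals that span 0.

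**Figure D3:**
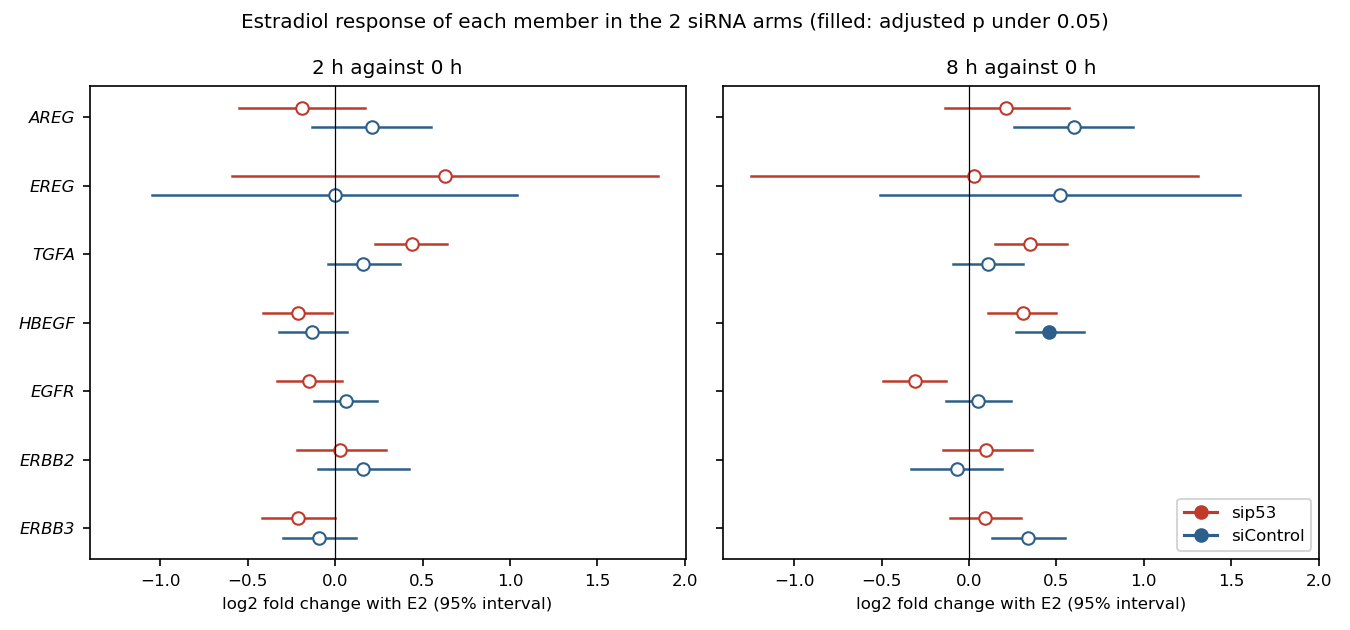
Log2 fold change with E2 at 2 h (left) and 8 h (right) against 0 h, with 95% intervals, for the 7 tested genes in sip53 (red, upper) and siControl (blue, lower). The single filled symbol is HBEGF in siControl at 8 h (0.46).

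Whether the E2 response itself differed between the arms was tested as an interaction. None of the 7 genes was called at 2 h or at 8 h, and 0% of all genes were called at either time. At an unadjusted p under 0.05 there were 0 of the 7 at 2 h and 1 at 8 h, with 451 and 583 of all genes, and DESeq2 called 1 and 2 genes in all, none of them among the 7. The 1 gene was EGFR, whose 8 h response was lower in sip53 than in siControl by a log2 difference of -0.37 ± 0.12 (adjusted p = 0.999, edgeR). The interaction for AREG was -0.40 at 2 h (95% interval -0.90 to 0.09) and -0.39 at 8 h (-0.88 to 0.10), and for HBEGF -0.09 (-0.36 to 0.19) and -0.16 (-0.43 to 0.12). For TGFA it was 0.27 at 2 h (-0.02 to 0.56) and 0.24 at 8 h (-0.04 to 0.53). The intervals of AREG, HBEGF and TGFA all hold 0, so neither a difference between the arms nor its absence is read from them. The size of difference that could be detected was not worked out.

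Other genes of the pathway were read from 5 lists. Among all tested genes, 3.98%, 4.42% and 2.81% were called higher in sip53 at 0, 2 and 8 h, and 5.14%, 7.79% and 6.14% were called lower. Among the other ligands, 3 of 7 were tested, and BTC (betacellulin, a ligand of EGFR and ERBB4) was the 1 called. BTC averaged 8.85 ± 1.85 CPM in sip53 and 16.1 ± 1.23 CPM in siControl at 0 h, a log2 fold change of -0.86 ± 0.22 (SE, adjusted p = 0.0175, edgeR), and it was also lower at 2 h (-0.69 ± 0.21, adjusted p = 0.0382). The list's median was -0.30, -0.23 and -0.52 at 0, 2 and 8 h. Of the 7 tested genes of ligand shedding, 3, 2 and 0 were higher in sip53 at 0, 2 and 8 h (3.98%, 4.42% and 2.81% of all genes) and none was lower, with medians of 0.36, 0.21 and 0.05. ADAM10 averaged 96.1 ± 3.76 CPM in sip53 and 68.1 ± 0.933 CPM in siControl at 0 h (log2 fold change 0.50 ± 0.09, adjusted p = 0.00283). ADAM17, the main shedding enzyme of AREG and TGFA, was higher by 0.36 at 0 h (adjusted p = 0.0183) and 0.31 at 2 h (adjusted p = 0.033), and ADAM15 by 0.36 at 0 h (adjusted p = 0.0299). Without siControl 0 h replicate 2 the 0 h values were -0.81 for BTC (adjusted p = 0.0525), 0.50 for ADAM10 (0.00981), 0.33 for ADAM17 (0.0702) and 0.45 for ADAM15 (0.0226). ADAM10 at 0 h held in all 6 fits with a library left out, and the other calls in 1 or 2 of 6.

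Of 11 tested ERK-responsive genes, known to be induced through this cascade, 3, 2 and 3 were lower in sip53 at 0, 2 and 8 h (5.14%, 7.79% and 6.14% of all genes) and none was higher, and the list's median was -0.30, -0.34 and -0.13. ETV5, a transcription factor induced by ERK signalling, was lower at each time, with log2 fold changes of -0.58, -0.51 and -0.72 (adjusted p = 0.0244, 0.0311 and 0.00678, edgeR), and averaged 21.4 ± 2.73 CPM in sip53 and 35.1 ± 5.12 CPM in siControl at 8 h. FOSL1, an AP-1 subunit, was lower at 0 h (-0.67 ± 0.14, adjusted p = 0.00718), as was EGR1, an immediate-early factor (-0.49 ± 0.14, adjusted p = 0.0348). PHLDA1 was lower at 2 h (-0.45, adjusted p = 0.0125) and 8 h (-0.50, adjusted p = 0.00759), and ATF3 at 8 h (-0.58, adjusted p = 0.0108). Without siControl 0 h replicate 2 the 0 h values were -0.74 for ETV5 (adjusted p = 0.00649), -0.71 for FOSL1 (0.0113) and -0.48 for EGR1 (0.085). ETV5 and PHLDA1 at 8 h and FOSL1 at 0 h held in all 6 fits with a library left out, PHLDA1 at 2 h and ATF3 in 4, ETV5 and EGR1 at 0 h in 2, and ETV5 at 2 h in none.

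Of 14 tested feedback inhibitors, none was called at 0 h, 1 was higher at 2 h and 3 were lower at 8 h, with medians of 0.02, -0.22 and -0.22. Of all tested genes, 4.42% were higher at 2 h and 6.14% lower at 8 h, and nothing is read from counts this small. DUSP5, a phosphatase of nuclear ERK, was the one higher at 2 h (0.43 ± 0.10, adjusted p = 0.00534, edgeR), a call that held in all 6 fits with a library left out. At 8 h CBL, which ubiquitinates EGFR, had a log2 fold change of -0.51 (adjusted p = 0.0147), SPRY4, an inhibitor of RAS-ERK signalling, of -1.76 ± 0.54 (adjusted p = 0.0442) and DUSP6, a phosphatase of cytoplasmic ERK, of -0.50 (adjusted p = 0.045). SPRY4 averaged 0.834 CPM in sip53 and 2.87 CPM in siControl at 8 h. Its call held in none of the 6 fits with a library left out, and those of CBL and DUSP6 in 2 each. DUSP6 at 8 h was -0.28 (adjusted p = 0.293) without siControl 8 h replicate 2, and its call was also lost with upper-quartile scaling (0.0509), a replicate block (0.0548) and the compared groups alone (0.086). Of 8 tested receptor adaptors, none was called at 0 h or 2 h and 2 were lower at 8 h, where 6.14% of all genes were lower. They were SOS2 (-0.86 ± 0.19, adjusted p = 0.00678), not called with sip53 8 h replicate 3 left out (adjusted p = 0.0577), and PTPN11 (-0.48 ± 0.13, adjusted p = 0.0269), kept in 2 of 6.

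**Figure D4:**
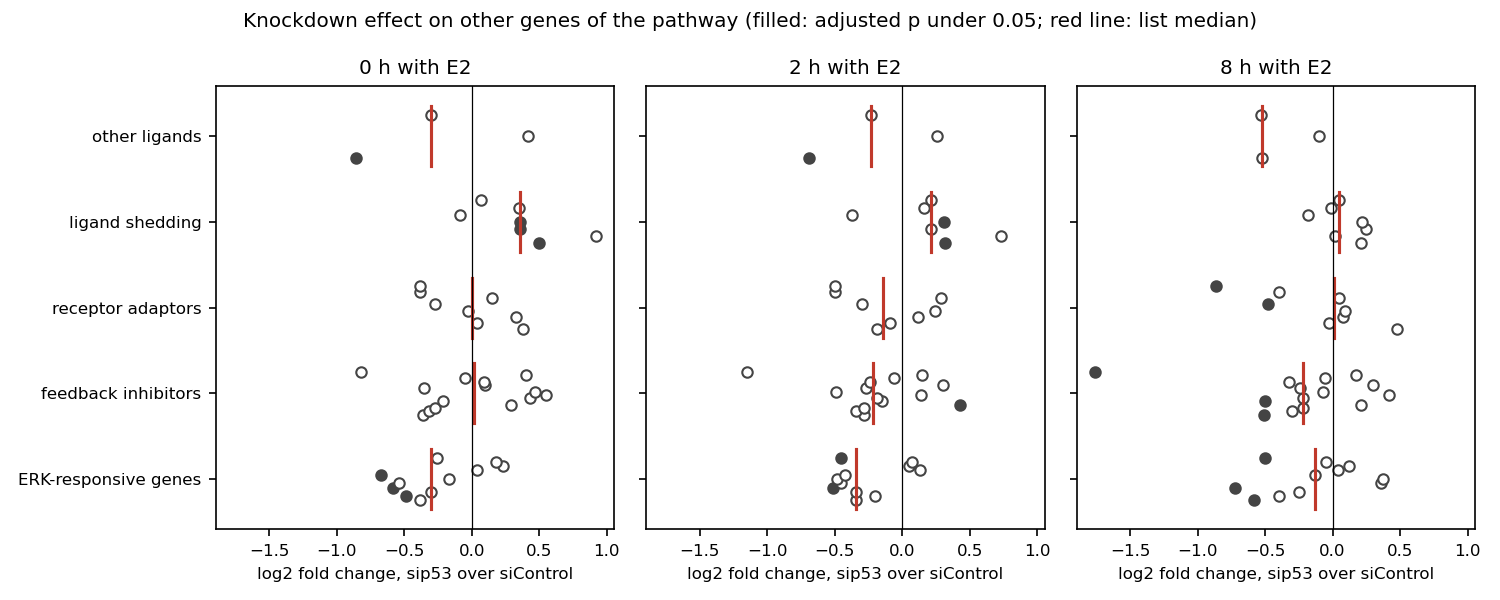
Log2 fold change of sip53 over siControl (horizontal axis) for each tested gene of 5 pathway lists at 0, 2 and 8 h, with filled points for adjusted p under 0.05 and a red line at the list's median. Called genes of ligand shedding lie right of 0 and called ERK-responsive genes left of it.

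Between the times of the E2 course, single genes of these lists were called. DUSP5 was lower at 8 h against 0 h in sip53 (-0.53, adjusted p = 0.00211, edgeR) and in siControl (-0.44, adjusted p = 0.0138), and the call held in all 6 fits with a library left out in sip53 and in 4 of 6 in siControl, where the compared groups alone gave -0.45 (adjusted p = 0.10). DUSP6 was lower at 8 h than at 2 h in sip53 (-0.96, adjusted p = 0.000749) and in siControl (-0.61, adjusted p = 0.0495). EGR1 in sip53 was higher at 2 h against 0 h (0.74 ± 0.14, adjusted p = 0.0151) and lower at 8 h against 2 h (-0.74 ± 0.14, adjusted p = 0.00545), and averaged 25.8, 43.0 and 25.8 CPM at 0, 2 and 8 h. IER3 in sip53 was lower at 2 h (-0.65, adjusted p = 0.0386) and FOSL1 in sip53 higher at 8 h (0.54, adjusted p = 0.042). In siControl PHLDA1 (0.54, adjusted p = 0.0096) and ERRFI1, an EGFR inhibitor (0.84 ± 0.21, adjusted p = 0.0333), were higher at 8 h against 0 h, and ATF3 was higher at 8 h than at 2 h (0.57, adjusted p = 0.0497). Without siControl 0 h replicate 2 the 8 h values in siControl were -0.47 for DUSP5 (adjusted p = 0.026), 0.48 for PHLDA1 (0.0539) and 0.71 for ERRFI1 (0.148). With a library left out, DUSP6 held in 6 of 6 fits in sip53 and 1 in siControl, EGR1 in 2 at 2 h and 5 at 8 h, IER3 and FOSL1 in 1, PHLDA1 in 5, ERRFI1 in 2 and ATF3 in none.

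AREG and EREG are neighbours in the genome. On GRCh38, EREG spans chr4:74365143-74388751 and AREG chr4:74445134-74455009, both on the plus strand, with 56382 bases and no protein-coding gene between them. BTC begins 289749 bases beyond AREG, on the minus strand. Within 1000000 bases on each side of AREG, a window chosen after the values were seen, 42 genes had a row and 10 were tested. The window is centred on AREG, a gene already seen to be lower, and EREG passed the filter through its siControl libraries. The number of lower genes is therefore not read as a result about the region. Among all tested genes, 5.14%, 7.79% and 6.14% were called lower in sip53 at 0, 2 and 8 h, and 3.98% higher at 0 h. At 0 h EREG, AREG and BTC were lower in sip53 and CXCL1 was higher (0.68 ± 0.20, adjusted p = 0.0371, edgeR). CXCL1 had 0.48 (adjusted p = 0.144) without siControl 0 h replicate 2. At 2 h AREG, BTC and RASSF6 (-1.18 ± 0.35, adjusted p = 0.0303) were lower, and at 8 h EREG and AREG. With a library left out, the calls of CXCL1 and RASSF6 each held in 1 of 6 fits, with adjusted p up to 0.144 and 0.102 (edgeR). The call of EREG at 0 h also held in 1 of 6, and those of BTC in 2 at 0 h and 1 at 2 h. The other tested genes there, among them the chemokine gene CXCL8, were not called at any of the 3 times.

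Over the 18 samples, AREG was most like ALDH1L2 (Pearson r = 0.97), CHD9 (0.94) and DLG1 (0.93) in log2 CPM, out of 9877 genes searched. HBEGF was most like NCOA7 and CCP110 (0.94 each) and NPEPPS (0.93), and ERBB3 like CELSR2 (0.94), EFNA1 (0.91) and CASZ1 (0.90). EREG was most like SCEL (0.92), PDXDC2P and CGGBP1 (0.91 each). TGFA was most like LONRF2 (0.82), CISH (0.80) and RNF223 (0.78), EGFR like GBP1 and NCOA3 (0.83 each) and ATP2B1 (0.82), and ERBB2 like MDGA1 (0.91), LTBR and TSPAN3 (0.86 each). Among the family itself, AREG had r = 0.83 with HBEGF and 0.80 with EREG over the 18 samples. Within groups, where each sample is set against its group's mean, the same pairs had r = 0.31 and 0.02. The 18 samples share 6 groups and their libraries' depth, so these are descriptions.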

How the data were processed

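The authors deposited RSEM expected counts per gene for 18 libraries from a QuantSeq 3′ FWD kit. Per the submitters' processing notes the tools were cutadapt, Bowtie2, RSEM 1.3.3 and MultiQC with build hg19, and the annotation used for counting is not given in these sources. All deposited expected counts were whole numbers, so rounding moved 0 values. Rows carry Ensembl transcript IDs. GENCODE v29 (GRCh38) named 52673 rows by a single gene and 267 by a majority of transcripts, and the 4796 unnamed rows hold 0.635% of counts. Coordinates are on GRCh38, and sequences are from RefSeq on GRCh38.p14.

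edgeR 4.0.16 in R 4.3.3 was fitted to all 18 libraries with TMM scaling, filterByExpr (minimum count 10, 15318 genes) and 1 coefficient per group (glmQLFit, glmQLFTest), for 11 contrasts. The common biological coefficient of variation was 15.2%. Alternatives were DESeq2 1.42.0, RLE and upper-quartile scaling, no filter, the compared groups alone, a replicate block and leaving out each library. Those for genes outside the family were added after seeing the data. Samples were grouped by their titles. Whether the 3 samples of each group were separate cultures is not stated in the labels, so the p-values rest on a spread between samples that may be technical. No 2 libraries of 1 group agreed within counting noise.

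The 8 genes and the lists were chosen with earlier results of these data known. Named genes were the 8, up to 3 called genes per list, direction and contrast, and the 3 genes most like each of the 8 among those with an average log2 CPM of at least 3. RASSF6, CXCL1 and CXCL8 were added after their values were seen. The level of the siRNA's own target is not reported here.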

Additional observations from a re-analysis of the deposited data

How the results depend on the processing

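Counts of called genes in this section are out of the 7 and so include EREG, which was left out of the knockdown counts above. With EREG, the main fit called 4, 3 and 3 of the 7 between the arms at 0, 2 and 8 h. Of all tested genes, 9.12%, 12.2% and 8.96% were called. EREG passed the low-count filter through its siControl libraries, so nothing about the family is read from these counts. Counts over all genes in other settings are given further on. No called value of the 7 tested genes changed sign, while uncalled values of ERBB2, EGFR and EREG did with a library left out (ERBB2 at 2 h between the arms, 0.05, was -0.08 without siControl 2 h replicate 1). Of 1001 alternatives, 960 kept their side of the threshold, 27 lost a call and 14 gained one. Most of the 1001 belong to results that were not called and so could not lose a call. Alternatives of called results numbered 167, and 140 of them kept the call. For the other genes named, where only called results were followed, 280 of 407 alternatives kept the call and 127 lost it. With the compared groups alone, the 0 h knockdown values were -1.87 for EREG (adjusted p = 0.136), -0.38 for HBEGF (0.0962) and 0.46 for ERBB3 (0.0759), so 1 of the 7 was called, and siControl gave 0.45 for HBEGF at 8 h against 0 h (0.0687) and 0.42 for ERBB3 at 8 h against 2 h (0.0558), with 1 called there. The same fits added calls of ERBB2 in the 8 h knockdown comparison (0.34, 0.0448), where 4 were called, of AREG in siControl at 8 h against 0 h (0.59, 0.0492) and of ERBB3 in sip53 at 8 h against 2 h (0.30, 0.0455), where 2 were called. EREG at 0 h was -1.86 with no filter (0.0532), and ERBB3 in siControl at 8 h against 2 h was 0.42 with upper-quartile scaling (0.0621), with 1 called. In siControl at 8 h against 0 h, 2 were called with no filter, 2 with the replicate block and 3 with DESeq2. In sip53 DESeq2 called 1 at 2 h and 3 at 8 h against 0 h, and it gave EREG no adjusted p at 8 h in the knockdown comparison. The cause of these changes was not tested, except that fewer samples enter the compared groups alone.

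Leaving out 1 library at a time gave, at 0 h between the arms, -2.62 to -1.38 for EREG, -0.40 to -0.33 for HBEGF and 0.38 to 0.56 for ERBB3, with 1 to 4 of the 7 called. For ERBB3 it gave 0.28 to 0.43 at 2 h between the arms and 0.35 to 0.50 in siControl at 8 h against 2 h, with 1 to 2 called. HBEGF in siControl at 8 h against 0 h ran from 0.40 to 0.50, with 0 to 1 called, and 0 to 1 were called in sip53 at 8 h against 0 h.

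Over all genes, the knockdown count at 0 h was 1397, against 284 with the compared groups alone and 289 to 2043 with a library left out. At 2 h and 8 h it was 821 to 1923 and 399 to 1466 with a library left out, against 1871 and 1372. In siControl the counts of 35 (2 h), 399 (8 h) and 157 (8 h against 2 h) became 285, 789 and 313 with no filter and 118, 670 and 327 with DESeq2, and those at 2 h and 8 h became 13 and 131 with the compared groups alone. With a library left out they ran from 17 to 144, 180 to 739 and 81 to 105. In sip53 the counts of 47, 419 and 211 became 204, 701 and 403 with no filter, 270 (8 h) and 375 (8 h against 2 h) with the compared groups alone, and 93 (2 h) and 406 (8 h against 2 h) with DESeq2, and ran from 30 to 42, 213 to 343 and 105 to 154 with a library left out. The interactions gave 36 and 54 calls with no filter. The labels do not say whether equal replicate numbers mark paired samples. Correlations of same-numbered deviations from the group mean ran from -0.15 to 0.21, with 2 of 27 over 0.1. Of the 18 samples, 7 correlated best with their own number. Such values cannot show whether samples were handled as pairs, and the main fit used no pairing. With the replicate block AREG in siControl at 8 h was called (0.60, adjusted p = 0.0493). EREG and ERBB4 had 247 and 1 counts in the 18 libraries together, so little can be read from their levels. Whether depth or low expression limits them was not tested.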
